A study of Mus musculus with 66 samples.

Results

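The replication-dependent histone genes encode the core histones H2A, H2B, H3 and H4 and the linker histone H1, and most of them lie in gene clusters. They were chosen by name alone, as the protein-coding genes of the mouse GENCODE M21 annotation whose symbol gives a histone type in the Hist1, Hist2, Hist3 or Hist4 cluster. Of 67 such genes, 59 were among the 39179 genes of the count tables, and the other 8 (Hist1h2bh, Hist1h2bm, Hist1h3d, Hist1h3f, Hist1h3g, Hist1h3h, Hist1h3i and Hist2h2bb) were not analysed here. On mm10 (GRCm38), 47 of the 59 genes lie in Hist1 on chromosome 13 between 21715763 and 23934851, and 9 lie in Hist2 on chromosome 3 between 96219865 and 96269141. The Hist3 cluster on chromosome 11 holds 2 genes, and Hist4 on chromosome 6 is 1 gene. By type there are 6 genes for H1, 18 for H2A, 15 for H2B, 7 for H3 and 13 for H4.

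These genes supply the histones that package newly copied DNA, so their transcripts are made in S phase and decay when replication ends. The typical transcript has no intron and no poly(A) tail. It ends just after a short stem-loop that is bound by the stem-loop binding protein Slbp and cut with the help of the U7 small nuclear ribonucleoprotein. Some histone genes also give polyadenylated transcripts, in particular in cells that have stopped dividing. A kit that selects poly(A) RNA and a kit that primes total RNA therefore sample different transcripts of this family.

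RNA came from BC57, a mouse bladder cancer cell line grown in DMEM with 10% fetal serum, and from normal mouse urothelium, the epithelium that lines the bladder. One part of the BC57 cell pellet and of the urothelium of 9 mice was frozen (FF), and the other part was held in buffered formalin for 24 h and embedded in paraffin (FFPE). No allele, strain, age or agent is given in the sources used here, nor how the 9 mice were combined. BC57 is a single line, and RNA of FFPE sections and of frozen material was extracted with different kits. SMARTer Pico libraries were made from 250 pg and 2 ng of total RNA, Ovation SoLo libraries from 50 pg, 250 pg and 2 ng, and poly(A) (TruSeq Stranded mRNA) libraries from 1 µg of frozen RNA only. Each of the 22 combinations of sample, preservation, kit and input has 3 libraries, 66 in all. The labels do not say that the 3 came from separate cultures or extractions, so p-values measure the spread between libraries, which may be technical. Counts per library ran from 651879 to 7152648 for SMARTer, from 928722 to 4706030 for Ovation and from 18499591 to 36187226 for poly(A).

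Levels are given in CPM, the count scaled to a library total of 1000000 counts, as mean ± SD over 3 libraries. A gene was called higher or lower at an adjusted p under 0.05 in edgeR's quasi-likelihood test over all genes that passed its filter on low counts. Log2 fold changes come from that fit, which rescales libraries by TMM, the trimmed mean of M values. A log2 ratio of plain CPM minus the rescaled one came to between -0.22 and 0.21 for the comparisons of samples and of preservations. For SMARTer over poly(A) it came to -0.55 in BC57 and -0.56 in urothelium. For SMARTer over Ovation it was -0.36 and -0.33, and for Ovation over poly(A) -0.18 and -0.21, in the same order. A member that is at 0 in one group passes the filter only through the group where it is high, so counts over tested members describe those members and not all 59. Fewer cells of a type and less RNA per cell cannot be told apart in such bulk samples. Marker genes set the samples apart as labelled, with 1 addition. The 8 urothelial markers (uroplakins, Krt5, Krt20, Trp63) summed to 273 to 299 CPM in the frozen 2 ng Ovation libraries of BC57, against 6410 to 6839 CPM in urothelium. The 6 fibroblast markers summed to 10.9 to 15 CPM in BC57, against 9406 to 10002 CPM in the urothelium sample, which thus held connective tissue RNA. Markers of smooth muscle, endothelium and leukocytes summed to at most 16.5, 0.922 and 10.2 CPM in BC57, against at least 169, 185 and 225 CPM in urothelium, and the endothelial marker Tek had no count in BC57. Their part in the histone differences between the samples was not tested. Some libraries stood apart. Library 3 of each SMARTer FFPE group of urothelium correlated with the other libraries of its group at 0.32 to 0.33 for 250 pg and 0.52 to 0.53 for 2 ng, and the same-numbered BC57 libraries at 0.82 to 0.83 and 0.91.

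The sequence that sets these transcripts apart is the 3' stem-loop. It was found in the annotated transcripts of 41 of the 59 members, against 14 of 21018 other protein-coding genes (0.0666%). The search covered the sense strand after the stop codon, and in several of the other 18 members the annotated transcript ends close to the stop codon. The members below are shown because their values are given in the comparisons that follow. The 16-base stem-loop is in capitals with 5 bases on each side, in DNA letters 5' to 3' from the GENCODE M21 transcripts. Their mm10 positions are chr13:23581945-23581970 (plus strand) for Hist1h4d, chr13:23739507-23739532 (plus) for Hist1h1c, chr13:23747198-23747223 (plus) for Hist1h2bb and chr13:23745042-23745067 (minus) for Hist1h3c. Hist3h2a has it at chr11:58955167-58955192 (plus) and Hist2h4 at chr3:96262934-96262959 (minus).
Hist1h4d: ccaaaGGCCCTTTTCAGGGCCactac
Hist1h1c: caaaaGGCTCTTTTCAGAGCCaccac
Hist1h2bb: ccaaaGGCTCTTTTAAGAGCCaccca
Hist1h3c: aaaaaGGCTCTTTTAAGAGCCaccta
Hist3h2a: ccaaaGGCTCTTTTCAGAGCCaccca
Hist2h4: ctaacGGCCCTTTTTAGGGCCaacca
The stem of the H4 genes Hist1h4d and Hist2h4 is built from GGCCC and that of the other 4 from GGCTC. The core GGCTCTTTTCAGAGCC occurs in 23 members and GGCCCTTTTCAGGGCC in 7. Annotated transcripts go on past the stem-loop by 23 bases in Hist1h2bb, 74 in Hist1h3c, 770 in Hist1h4d, 840 in Hist1h1c, 1257 in Hist2h4 and 1643 in Hist3h2a. The polyadenylation hexamer AATAAA lies in the annotated 3' UTR of 18 members, searched only past the stem-loop where one was found. In other protein-coding genes with a 3' UTR of at least 16 bases the whole 3' UTR was searched, and 82.7% have it. The figures are therefore not measured alike.

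Summed over the 59 genes, histone transcripts took 4149 ± 177 CPM of the frozen 2 ng SMARTer libraries of BC57 and 8508 ± 794 CPM of the Ovation libraries, against 66.1 ± 1.27 CPM of the poly(A) libraries. In frozen urothelium the sums were 442 ± 18.8 CPM with SMARTer and 849 ± 122 CPM with Ovation, against 106 ± 3.11 CPM with poly(A). As a share of all counts, the family took 0.851% of the BC57 Ovation libraries and 0.00661% of the BC57 poly(A) libraries. The summed level was thus 62.8-fold (SMARTer) and 129-fold (Ovation) that of poly(A) in BC57, and 4.17-fold and 8.02-fold in urothelium. BC57 stood 9.39-fold (SMARTer) and 10.0-fold (Ovation) above urothelium in the frozen 2 ng libraries, and at 0.62 of urothelium in the poly(A) libraries. Libraries of the compared groups did not overlap in any of these sums.

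**Figure D1:**
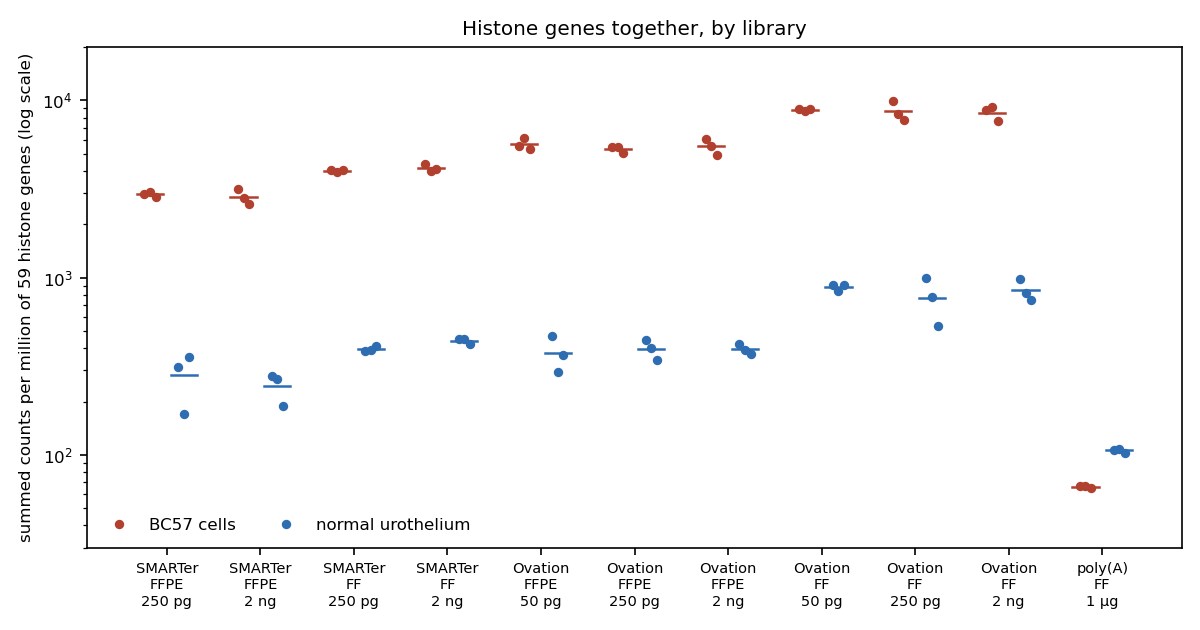
Summed CPM of the 59 histone genes per library (points, log axis) by kit, preservation and input, with BC57 left of urothelium in each. The BC57 libraries lie above those of urothelium in each low-input condition, with means 9.39- to 15.1-fold higher, and below them in the poly(A) libraries.

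The sums moved little with input. In frozen BC57 with Ovation they were 8847 ± 142 CPM at 50 pg, 8688 ± 1128 CPM at 250 pg and 8508 ± 794 CPM at 2 ng, and in frozen urothelium 885 ± 41.5, 771 ± 229 and 849 ± 122 CPM. With SMARTer they were 4011 ± 48.9 CPM at 250 pg and 4149 ± 177 CPM at 2 ng in frozen BC57, and 396 ± 14.9 and 442 ± 18.8 CPM in frozen urothelium. Each of these Ovation differences between inputs was smaller than the larger SD of the inputs compared, as was the SMARTer difference in BC57. The SMARTer difference in urothelium was larger than either SD. No test was run on sums. The ratio of BC57 to urothelium ran from 9.39 to 11.3 in frozen and from 10.5 to 15.1 in FFPE material over kits and inputs. In BC57, 2 or 3 members had no count in any of a group's 3 libraries in every low-input group. In urothelium 4 had none in each group at 2 ng, 12 in FFPE with Ovation at 50 pg and 16 in FFPE with SMARTer at 250 pg.

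Every type of histone was scarce in the poly(A) libraries. Hist1h4d, an H4 gene, had 650, 668 and 495 CPM in the frozen 2 ng Ovation libraries of BC57, against 0.0834, 0.0533 and 0.138 CPM in the poly(A) libraries. In urothelium it had 162, 132 and 105 CPM with Ovation, against 0.108, 0.0405 and 0.0951 CPM with poly(A). The Ovation libraries were thus above every poly(A) library in each sample, by a log2 fold change of 12.65 (SE 0.15, edgeR adjusted p = 4.68e-29) in BC57 and 10.73 in urothelium. SMARTer gave Hist1h4d 233, 204 and 197 CPM in BC57 and 51.2, 58.2 and 45 CPM in urothelium, log2 fold changes over poly(A) of 11.51 and 9.74. The H2B gene Hist1h2bb had a log2 fold change of 11.74 for Ovation over poly(A) in BC57 (389 ± 16 against 0.119 ± 0.0425 CPM), and the H3 gene Hist1h3e one of 10.49. With SMARTer the H2A gene Hist1h2ak had 202 ± 7.10 CPM against 0.0738 ± 0.0844 CPM in BC57 (11.60), and was at least 173-fold higher in urothelium, where poly(A) gave no count. For Ovation in urothelium Hist1h4f, an H4 gene, was at 17.6 ± 3.12 CPM against no count, at least 434-fold higher. These bounds set 3 counts over the group of poly(A) libraries in place of 0 and cannot be ranked against measured folds.

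Of 56 members tested for Ovation over poly(A) in BC57, 55 were called higher and 0 lower, with a median log2 fold change of 9.66, against -0.02 over all genes tested. In that comparison 30.3% of all genes tested were called higher. SMARTer over poly(A) in BC57 called 53 of 54 members higher and 1 lower (median 8.51), where 29.5% of genes were called higher and 27.9% lower. In urothelium 40 of 43 members were called higher and 0 lower with Ovation (median 5.92; background 28.1% higher), and 32 of 36 higher and 1 lower with SMARTer (median 4.77; background 29% higher and 28.7% lower). With the members that had no poly(A) count set at their bound, the BC57 medians were 9.56 (Ovation) and 8.36 (SMARTer). The SMARTer and Ovation comparisons share the poly(A) libraries, and kit and input (2 ng against 1 µg) cannot be told apart. By type, the Ovation medians in BC57 were 10.43 for H1, 9.14 for H2A, 9.62 for H2B (8.41 with bounds), 10.25 for H3 and 9.53 for H4. In urothelium they were 5.98 for H1, 4.48 for H2A, 5.14 for H2B, 7.93 for H3 and 7.46 for H4. Members of the Hist2 cluster stood lower, with medians of 5.75 in BC57 and 1.77 in urothelium, beside 9.86 and 6.99 for Hist1.

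**Figure D2:**
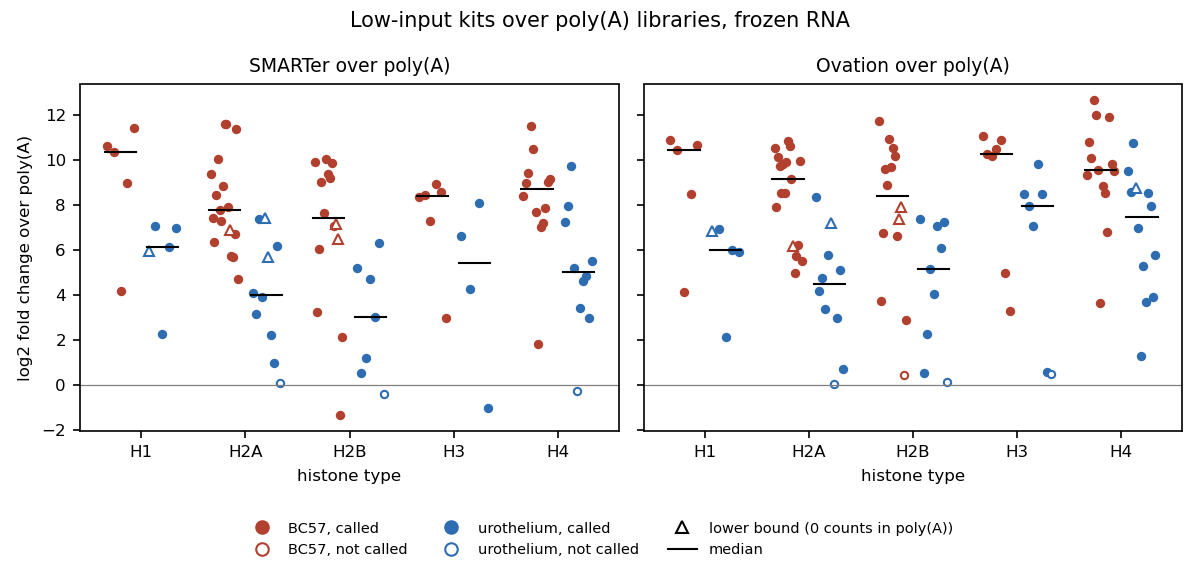
Log2 fold change of each tested member for SMARTer over poly(A) and Ovation over poly(A) (frozen RNA, 2 ng over 1 µg), by histone type and sample. Filled symbols passed the test, open circles did not, and triangles are lower bounds against 0 poly(A) counts. Bars are medians by type with these bounds in place. Over all tested members, the fitted BC57 medians without bounds are 8.51 for SMARTer and 9.66 for Ovation, and those of urothelium 4.77 and 5.92.

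A few members were about as abundant in the poly(A) libraries as in the low-input ones. Hist2h2be encodes H2BE, an H2B variant studied in mouse olfactory neurons. In BC57 it had 2.59, 2.99 and 2.15 CPM with SMARTer and 7.82, 14.3 and 12.4 CPM with Ovation, against 9.34, 9.59 and 10.0 CPM with poly(A). SMARTer over poly(A) was lower (log2 fold change -1.33, SE 0.201, edgeR adjusted p = 5.7e-05), and the Ovation and poly(A) libraries overlapped (0.42, SE 0.193, adjusted p = 0.0624). In urothelium Ovation gave Hist2h2be 7.52 ± 2.05 CPM against 8.12 ± 0.275 CPM with poly(A), a log2 fold change of 0.11 that did not pass. The H3 gene Hist2h3c1 was the member called lower in urothelium with SMARTer, at 3.06 ± 1.12 CPM against 9.41 ± 0.885 CPM (-1.02, SE 0.236, adjusted p = 0.000987). It shares every 100-base window of its sequence with other genes and overlaps the transcript Gm20634 on its strand, so its counts are uncertain.

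Hist1h2bc, an H2B gene with a spliced transcript in the annotation, was the most abundant member of the urothelium poly(A) libraries per length, at 26.1 CPM per kb. It had 26.6, 31.9 and 29.7 CPM with SMARTer and 43.9, 31.4 and 37.5 CPM with Ovation in urothelium, against 30.1, 30.8 and 29.6 CPM with poly(A). Both kits were called higher (0.52 for SMARTer, adjusted p = 0.000103, and 0.53 for Ovation, adjusted p = 0.000311), although for SMARTer the plain CPM means stood the other way, 29.4 against 30.1. In BC57 Hist1h2bc was 3.74 higher on the log2 scale with Ovation (150 ± 7.37 against 12.9 ± 1.19 CPM). Hist1h1c, a linker histone, led the BC57 poly(A) libraries with 14.6 CPM per kb and was second in urothelium with 11.9 CPM per kb. With Ovation it was 4.14 higher in BC57 (357 ± 38.5 against 22.8 ± 1.42 CPM) and 2.12 higher in urothelium (70.5 ± 10.6 against 18.6 ± 0.113 CPM), and with SMARTer 4.17 higher in BC57. Hist3h2a, an H2A gene that shares exon sequence with Trim17 on its strand, was 5.48 higher with Ovation in BC57 and 0.73 higher in urothelium. For SMARTer in urothelium it had 12.6 ± 0.536 against 17.5 ± 1.04 CPM and a log2 fold change of 0.09 that did not pass, a direction that differs between plain CPM and the rescaled fit. Hist1h4i (H4) and Hist3h2ba (H2B) were 3.65 and 2.90 higher with Ovation in BC57, and Hist2h3c1 was 0.56 higher in urothelium (adjusted p = 0.0174), a call lost when any 1 of the Ovation libraries was left out (0.52 to 0.55).

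Members with AATAAA in their annotated 3' UTR, past the stem-loop where one was found, had the higher median poly(A) level in plain CPM. Their median poly(A) level was 0.427 CPM in BC57 and 0.450 CPM in urothelium (18 members), beside 0.119 and 0.0375 CPM for the 41 without. At least 1 CPM was reached by 6 of the 18 in BC57 and 7 in urothelium, and by 1 and 3 of the 41. These levels are not divided by length, and members with the hexamer include long annotated transcripts such as Hist1h1d (7425 bases) and Hist1h2be (4446 bases). Per length, the medians of both sets lay close together in BC57, while in urothelium that of members with the hexamer stayed higher. The median log2 fold change of Ovation over poly(A) was 7.92 in BC57 (17 tested) and 2.83 in urothelium (12 tested) for members with the hexamer, beside 10.13 (39 tested) and 7.07 (31 tested) for members without. Of the 59 members, 10 have no annotated 3' UTR at all and count among those without, and this split is a description with no test. Hist1h1c, Hist1h2bc, Hist1h2be, Hist2h2be, Hist2h3c1 and Hist3h2a, the 6 members with the largest mean poly(A) level, each have the hexamer.

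The kits also ranked the members differently. Per length, the leading members of the frozen 2 ng SMARTer libraries of BC57 were Hist2h2ac (555 CPM per kb), Hist1h2ak (515), Hist1h2af (383), all H2A genes, and the H1 gene Hist1h1e (316). Those of the Ovation libraries were Hist1h4n (1110 CPM per kb), Hist1h2bb (765), Hist1h3c (707), Hist1h3a (608), Hist1h4b (590) and Hist1h4h (578), which encode H4, H2B and H3. In urothelium Hist1h4d (45.3 CPM per kb) led with SMARTer and Hist1h4h (172 CPM per kb) with Ovation. These ranks depend on the annotated exon length, which is 393 bases for Hist1h2ak, 1930 for Hist1h1e and 1138 for Hist1h4d. By plain CPM the leading member was another in BC57, Hist1h1e with SMARTer (14.7% of the histone sum) and Hist1h4d with Ovation (7.10%). In urothelium it was Hist1h1e with SMARTer (19.1%) and Hist1h4d with Ovation (15.6%). H1 genes gave 38.4% of the BC57 histone sum with SMARTer and 19.8% with Ovation, H3 genes 6.38% and 18.6%, and H4 genes 15.5% and 29%. The 5 highest members made up 28.1% of the BC57 sum with Ovation, against 81.1% in poly(A) libraries. Hist1h2aa, Hist1h2ba and Hist1h1t, the testis histones of this family, had 1, 7 and 30 counts over all 66 libraries.

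**Figure D3:**
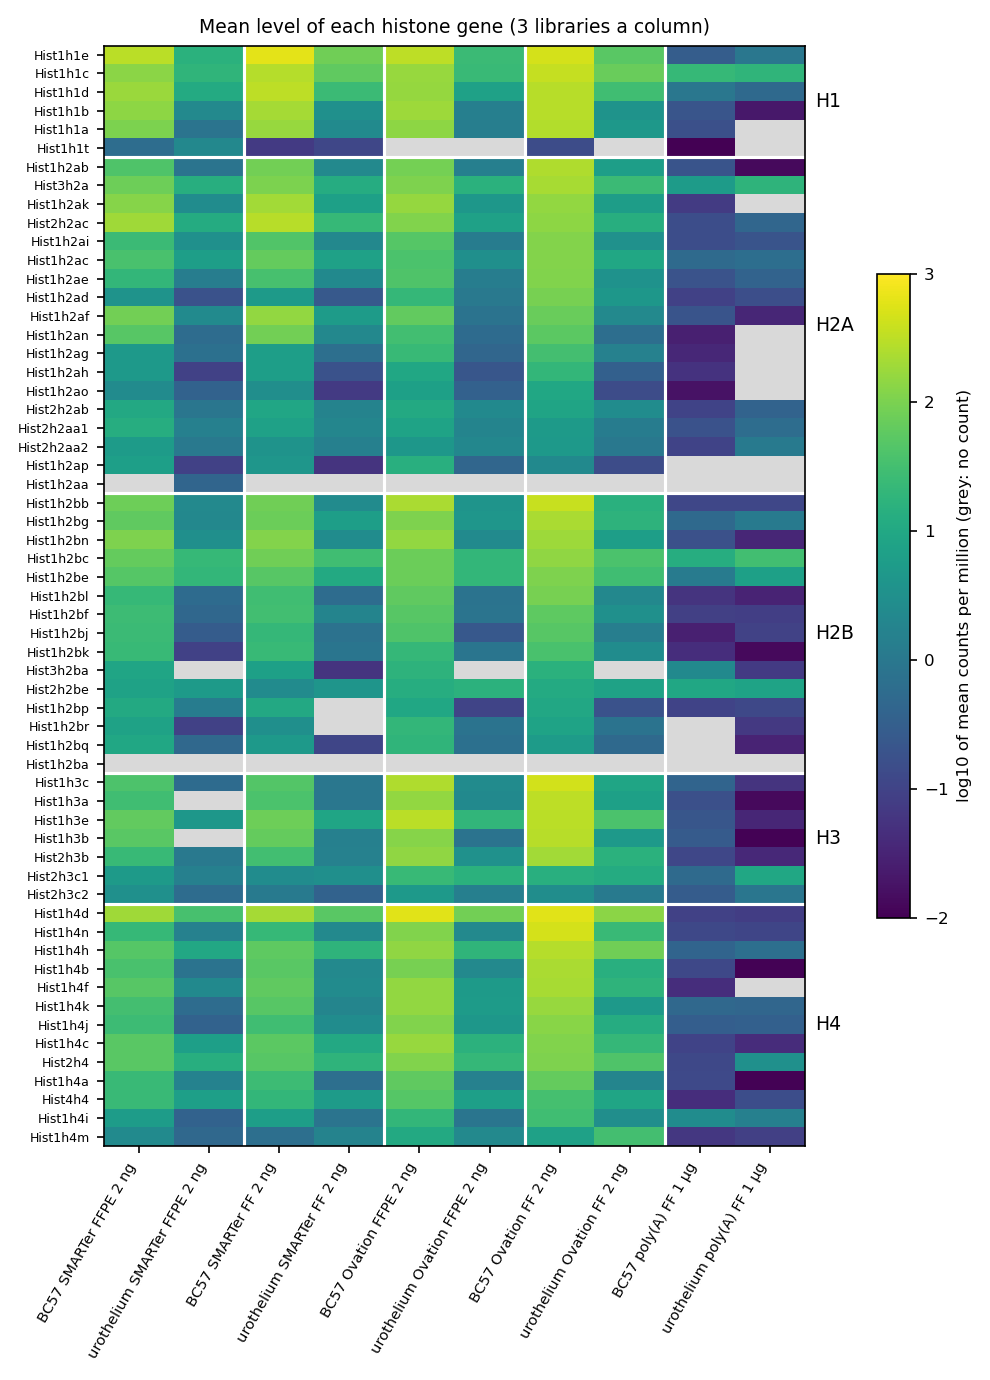
Mean level of each of the 59 members (rows, by histone type) as log10 of mean CPM. Columns are the groups with the highest input of each kit, and groups of lower input are not shown. Grey marks members with no count in the group. Poly(A) columns are dim except for a few rows such as Hist1h1c, Hist1h2bc and Hist3h2a, and the BC57 low-input columns are the brightest.

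Tested directly in frozen 2 ng libraries, SMARTer was lower than Ovation for most members, and the difference followed histone type. In BC57, 39 of 55 tested members were called lower and 6 higher, with a median log2 fold change of -0.95, where 26.2% of all genes were called lower and 26.7% higher. In urothelium 22 of 37 were called lower and 3 higher (median -1.03; background 23.9% lower and 24.6% higher). All 6 tested H3 members and 12 of 13 tested H4 members were lower in BC57 (medians -2.17 and -1.51), and 11 of 14 H2B members (-0.75). Of 17 H2A members 9 were lower and 4 higher (-0.50), and of 5 H1 members 1 was lower and 2 higher (0.01). Urothelium gave the medians -2.12 for H3 (6 of 6 lower), -1.83 for H4 (9 of 11 lower), -0.99 for H2B (4 of 6 lower), -0.25 for H2A (3 of 9 lower, 2 higher) and 0.13 for H1 (0 of 5 lower, 1 higher).

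**Figure D4:**
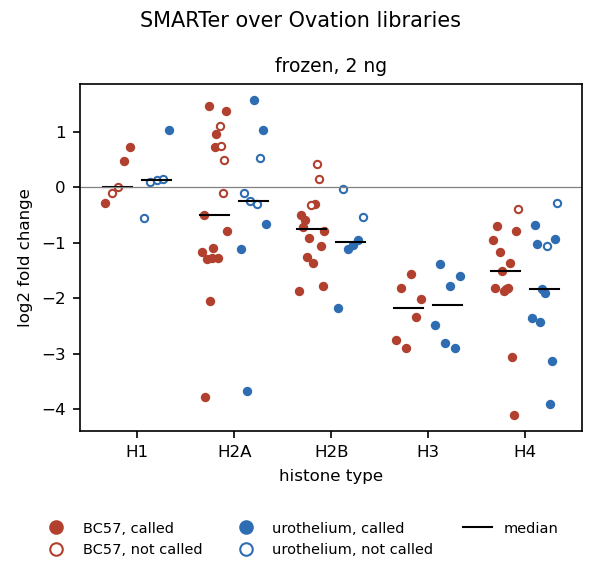
Log2 fold change of each tested member for SMARTer over Ovation in frozen 2 ng libraries, by histone type, in BC57 and urothelium. Filled points passed the test and bars are medians; H3 and H4 members lie below 0 while H1 members lie around it.

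Hist1h4n, an H4 gene, showed the largest fall in BC57, with 25.9, 20.5 and 19.3 CPM in the SMARTer libraries against 488, 497 and 447 CPM in the Ovation libraries (log2 fold change -4.10, SE 0.104, edgeR adjusted p = 1.48e-19). In urothelium the largest fall was that of Hist1h4m, another H4 gene, with 1.83, 1.55 and 1.68 CPM against 35.8, 30.9 and 30.5 CPM (-3.91, SE 0.276, adjusted p = 9.29e-15). The coding sequences of Hist1h4m and Hist1h4n are identical, and 11.9% and 19.3% of their 100-base windows are unique, so reads may be split between them. The H2A gene Hist1h2ad fell by 3.77 in BC57 and by 3.67 in urothelium, and Hist1h3c (H3) fell by 2.90 in BC57. Hist1h4d, with every window unique, fell by 1.16 (211 ± 19.5 against 604 ± 94.8 CPM).

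The members called higher with SMARTer were H2A and H1 genes in each sample. Hist1h2af had 149, 149 and 160 CPM in BC57 with SMARTer, against 79.5, 71.5 and 62.7 CPM with Ovation, without overlap (1.46, SE 0.0958, adjusted p = 1.27e-11), and 5.48 against 2.30 CPM in urothelium (1.57, adjusted p = 0.00784). Hist2h2ac was 1.37 higher in BC57 (289 ± 33.4 against 143 ± 12.4 CPM) and 1.04 higher in urothelium. Hist1h1e was 0.73 higher in BC57 (610 ± 10.6 against 472 CPM) and 1.04 higher in urothelium. Hist1h2an, Hist1h2ak and Hist1h1d were higher in BC57 by 0.97, 0.73 and 0.47. Hist1h1c had 279 ± 15.3 against 357 ± 38.5 CPM in BC57, a log2 fold change of 0.01 in the rescaled fit that did not pass, so that plain CPM and the fit differ.

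Set against urothelium, BC57 cells had more of nearly every histone transcript in each low-input kit. Hist1h2bb had 402, 393 and 371 CPM in the frozen 2 ng Ovation libraries of BC57, against 15.2, 13.9 and 14.8 CPM in urothelium (log2 fold change 4.67, SE 0.111, edgeR adjusted p = 2.72e-30). Hist1h3c had 469, 508 and 360 CPM in BC57, against 9.22, 8.23 and 8.73 CPM in urothelium (5.61, SE 0.147, adjusted p = 5.88e-29). Hist1h4d, at the values given above, was 2.14 higher in BC57 with Ovation (SE 0.102) and 2.05 higher with SMARTer. For none of these genes did the groups overlap.

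With Ovation, 49 of 52 tested members were called higher in BC57 and 1 lower (median 3.86), where 37.6% of all genes were called higher and 41.4% lower. With SMARTer 51 of 53 were called higher and 0 lower (median 4.23), where 36.3% of all genes were called higher. The H1 genes Hist1h1c, Hist1h1d and Hist1h1e were 2.29, 3.29 and 3.14 higher with Ovation, and all 5 tested H1 members were called with each kit. Of the H2A genes all 14 tested were called higher with Ovation (median 4.76) and all 17 with SMARTer (4.34), with Hist1h2ak at 4.65, Hist2h2ac at 3.36 and Hist3h2a at 3.13 for Ovation. Of the H2B genes 13 of 14 were called higher with Ovation (3.93) and 12 of 13 with SMARTer (4.76), with Hist1h2bn at 4.77. Of the H3 genes 5 of 6 were called with each kit (4.56 and 4.76), with Hist1h3a at 5.49, Hist1h3e at 2.94 and Hist2h3b at 3.63 for Ovation. The H4 genes gave 12 higher and 1 lower of 13 with Ovation (3.15) and 12 of 12 higher with SMARTer (3.10), with Hist1h4n at 4.22, Hist1h4h at 1.71, Hist2h4 at 1.33 and Hist4h4 at 1.91 for Ovation. The Hist1 members had medians of 4.22 with Ovation (43 tested) and 4.64 with SMARTer (42 tested), beside 1.46 (6 tested) and 1.68 (8 tested) for Hist2.

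Hist2h2be and Hist2h3c1 were the members that did not pass with either kit. Hist2h2be had 11.5 ± 3.32 CPM in BC57 against 7.52 ± 2.05 CPM in urothelium with Ovation (0.54, adjusted p = 0.0996), and 2.57 ± 0.420 against 4.11 ± 0.666 CPM with SMARTer (-0.65, adjusted p = 0.133). Hist2h3c1 gave 0.20 with Ovation (adjusted p = 0.513) and -0.16 with SMARTer (adjusted p = 0.736). Hist1h4m was the member called lower, with 5.22, 8.76 and 7.94 CPM in BC57 against 35.8, 30.9 and 30.5 CPM in urothelium with Ovation at 2 ng (-2.19, SE 0.231, adjusted p = 7.7e-11). It was also lower at 250 pg (-2.19, adjusted p = 0.0282) and at 50 pg (-2.44, adjusted p = 0.00172). In FFPE material it went the other way, with 11, 10.1 and 12 CPM in BC57 against 2.99, 1.15 and 2.57 CPM in urothelium (2.34, adjusted p = 4.86e-07). At 250 pg the frozen call was lost when any 1 library other than urothelium library 3 was left out, and with the replicate number as a block. With SMARTer Hist1h4m was not among the members tested in frozen 2 ng libraries, where it had 5, 4 and 2 counts in BC57 against 11, 9 and 8 in urothelium.

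In the poly(A) libraries of frozen RNA most tested members were not called higher in BC57. Only 20 members passed the filter on low counts, of which 12 were called lower and 5 higher in BC57, where 48.5% of all genes were called lower and 42.8% higher. The lower calls are thus not far from the share of all genes, and the number of higher calls depends on the filter, as given below. Hist2h4, an H4 gene, had 0.139, 0.0533 and 0.166 CPM in BC57 with poly(A), against 3.30, 3.60 and 2.92 CPM in urothelium (-4.44, SE 0.272, adjusted p = 1.92e-12). Its Ovation libraries were ordered oppositely, with 107, 115 and 106 CPM in BC57 against 39, 47.8 and 38.8 CPM in urothelium. Hist2h3c1 was 4.08 lower in BC57 (0.544 ± 0.223 against 9.41 ± 0.885 CPM), and Hist1h2be, whose exons overlap those of Hist1h1e on the same strand, 2.49 lower (1.21 ± 0.432 against 7.04 ± 0.476 CPM). Hist3h2a had 5.75, 5.33 and 5.89 CPM against 18.5, 17.5 and 16.5 CPM (-1.47, SE 0.0802, adjusted p = 2.57e-13), and Hist1h2bc 12.9 ± 1.19 against 30.1 ± 0.562 CPM (-1.10, SE 0.0655, adjusted p = 1.18e-12). Hist1h1e, Hist2h2ac, Hist1h2ae and Hist1h2bg were lower by 1.46, 1.36, 1.22 and 0.99, at means of at most 1.17 CPM in each sample. The call of Hist1h2ae was lost without BC57 library 1 (-0.99) or 3 (-0.61), without urothelium library 2 (-1.0) and with DESeq2 (-1.04), which also did not call Hist2h2ac (adjusted p = 0.068).

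The 5 members higher in BC57 with poly(A) were an H4 gene, 2 H2B genes and 2 H1 genes. Hist3h2ba had 2.56, 2.35 and 2.04 CPM in BC57, against 0.0541, 0.162 and 0 CPM in urothelium (5.15, SE 0.391, adjusted p = 7.29e-11). With Ovation it had 16.1, 17.5 and 12.4 CPM in frozen BC57 and no count in urothelium, at least 31-fold, and in FFPE material at least 50.2-fold. Hist1h1d, Hist1h4i, Hist1h1c and Hist2h2be were higher in BC57 by 0.98, 0.95, 0.43 and 0.39, with Hist1h1c at 22.8 ± 1.42 against 18.6 ± 0.113 CPM and Hist2h2be at 9.65 ± 0.351 against 8.12 ± 0.275 CPM. Without the filter on low counts 17 members were called higher, and with DESeq2 12.

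The test of the difference itself compared BC57 over urothelium between a low-input kit and poly(A). For Ovation, 29 of 56 tested members were called with a larger BC57 excess than in the poly(A) libraries and 0 with a smaller one (median 3.58), where 6.71% of all genes were called larger. For SMARTer it was also 29 of 56 and 0 (median 3.41), with 7.23% of all genes. Most of the 56 tested members did not pass the filter on low counts in the poly(A) libraries alone. They entered through the low-input libraries where they are high, and their poly(A) ratios rest on few counts. The share of calls therefore describes the members tested and cannot be weighed against that of all genes. Hist1h2bj, an H2B gene, had the largest fitted difference called for Ovation at 6.87 (SE 1.13, edgeR adjusted p = 6.1e-05), with poly(A) counts of 1, 1 and 0 in BC57 and 2, 3 and 2 in urothelium. Hist2h4 differed by 5.98 for Ovation and 6.16 for SMARTer, from the values given above. Both tests share the poly(A) libraries.

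The low-input difference between the samples held at lower input and in FFPE material. In frozen material Ovation called 47 of 52 tested members higher in BC57 and 1 lower at 250 pg (median 4.05; background 21.6% and 26.4%) and 49 of 54 and 1 at 50 pg (3.97; background 20.2% and 25%). SMARTer called 49 of 55 higher at 250 pg (3.68; background 23.9%). In FFPE material Ovation called 54 of 55 at 2 ng (4.74; background 36.7%), 49 of 55 at 250 pg (4.51; 24.0%) and 46 of 53 at 50 pg (4.76; 14.7%), and none lower. SMARTer on FFPE called 47 of 52 at 2 ng (4.30; background 13.7%) and 21 of 47 at 250 pg (4.63, or 4.08 with bounds; background 3.8%), and none lower. At 2 ng, 25 members were called when library 1 of BC57 was left out, 26 when its library 2 was, 30 when urothelium library 2 was, and 52 of 54 when both libraries numbered 3 were. At 250 pg the number called was 4 on omitting the first or second BC57 library, 8 on omitting the third, and 6 on omitting the first or second library of urothelium. In these conditions the member with the largest fitted value had no count in urothelium, a rank that depends on the fit's prior count, so only a lower bound is given. These members were the H2A genes Hist1h2an (frozen Ovation, 50 pg, at least 178-fold), Hist1h2ao (frozen Ovation, 250 pg, 29-fold), Hist1h2ac (FFPE Ovation, 50 pg, 195-fold) and Hist1h2ai (FFPE Ovation, 250 pg, 184-fold). With SMARTer they were the H2B genes Hist1h2bp (frozen, 2 ng, 58.3-fold) and Hist1h2bn (FFPE, 250 pg, 233-fold) and the H3 gene Hist1h3b (frozen, 250 pg, 353-fold, and FFPE, 2 ng, 142-fold), each as a lower bound.

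FFPE libraries held less histone RNA than frozen ones. At 2 ng the summed level with SMARTer was 2854 ± 271 CPM in FFPE against 4149 ± 177 CPM in FF for BC57, and 246 ± 48.9 against 442 ± 18.8 CPM for urothelium, ratios of 0.69 and 0.56. With Ovation it was 5494 ± 562 against 8508 ± 794 CPM for BC57 and 395 ± 26.7 against 849 ± 122 CPM for urothelium, ratios of 0.65 and 0.46. FFPE and FF libraries did not overlap in these sums. In BC57 the ratios were 0.74 with SMARTer at 250 pg, and with Ovation 0.64 at 50 pg and 0.61 at 250 pg. In urothelium they were 0.71 with SMARTer at 250 pg, and with Ovation 0.42 at 50 pg and 0.51 at 250 pg. Preservation and extraction kit cannot be told apart in this design.

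**Figure D5:**
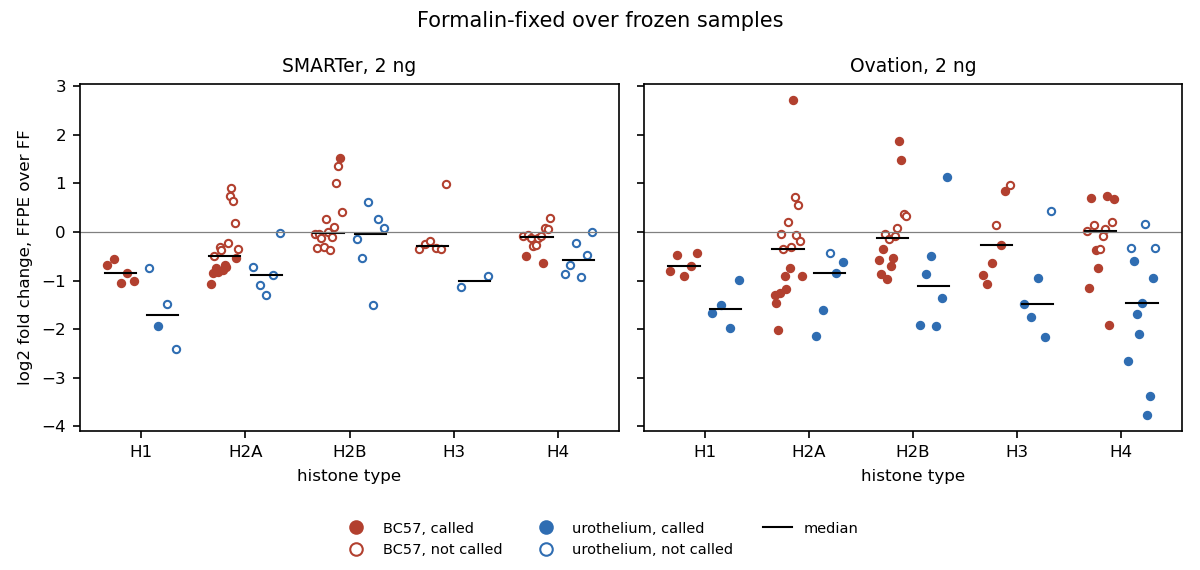
Log2 fold change of each tested member for FFPE over FF at 2 ng, with SMARTer and with Ovation, by histone type and sample. Filled points passed the test, open points did not and bars are medians. With Ovation the median over all tested members is -0.32 in BC57 and -1.45 in urothelium.

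With Ovation in BC57, 27 of 56 tested members were called lower in FFPE and 7 higher (median -0.32), where 15.6% of all genes were called lower and 16.6% higher. In urothelium 25 of 31 were called lower and 1 higher (median -1.45; background 17.9% lower and 19.3% higher). All tested H1 members were lower in each sample (5 in BC57, median -0.70, and 4 in urothelium, -1.59), with Hist1h1c at 173 ± 30.7 against 357 ± 38.5 CPM in BC57 (-0.90) and 24.2 ± 4.33 against 70.5 ± 10.6 CPM in urothelium (-1.51). The BC57 medians of the other types were -0.35 for H2A (8 of 17 lower), -0.12 for H2B (6 of 14), -0.27 for H3 (4 of 7) and 0.01 for H4 (4 of 13), and those of urothelium -0.84 (4 of 5 lower), -1.12 (5 of 6, with 1 higher), -1.48 (4 of 5) and -1.45 (8 of 11). Hist1h4d had 600 ± 65.0 CPM in FFPE against 604 ± 94.8 CPM in FF in BC57 (0.14, adjusted p = 0.20), and 85.7 ± 12.8 against 133 ± 28.2 CPM in urothelium (-0.59, adjusted p = 2.38e-05). Hist1h2bb was 0.58 lower in BC57 FFPE.

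The largest falls were in members that share much of their sequence with other genes. Hist1h2ad had 21.2, 22.2 and 19.9 CPM in BC57 FFPE against 108, 105 and 71.0 CPM in FF (-2.02, SE 0.145, edgeR adjusted p = 3.61e-13), and Hist1h4n had 132, 117 and 92.6 against 488, 497 and 447 CPM (-1.92). In urothelium Hist1h4m had 2.99, 1.15 and 2.57 CPM in FFPE against 35.8, 30.9 and 30.5 CPM in FF (-3.77, SE 0.305, adjusted p = 5.15e-16), Hist1h4n fell by 3.38 and Hist1h4b by 2.67. None of these FFPE libraries overlapped with the FF ones. The members called higher in BC57 FFPE included Hist1h2ap, with 13.4, 15 and 14.5 CPM against 1.30, 3.23 and 2.65 CPM (2.71, SE 0.345, adjusted p = 1.28e-07). Hist1h2bq and Hist1h2br, H2B genes with identical coding sequence, were higher by 1.88 and 1.47, Hist2h3c1 by 0.85, Hist1h4m by 0.75 (adjusted p = 0.0425) and Hist4h4 by 0.67. The call of Hist1h4m was lost without any 1 FFPE library or without FF library 1 or 3 (0.54 to 0.82), and that of Hist2h3c1 without FF library 1 (0.58). The coding sequence of Hist1h2ap is identical to that of Hist1h2ao, and 7.83% of its windows are unique, as are 5.16% for Hist1h2bq and 13.6% for Hist1h2br. In urothelium the member called higher was Hist2h2be, with 20.6, 18.4 and 9.97 CPM in FFPE against 8.68, 5.14 and 8.73 CPM in FF (1.13, adjusted p = 0.00209).

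With SMARTer fewer members passed. In BC57, 15 of 54 were called lower in FFPE and 1 higher (median -0.26; background 8.57% lower and 9.25% higher). The 5 tested H1 members were all lower (median -0.85), with Hist1h1c at 134 against 279 CPM (-1.05) and Hist1h1e at 301 ± 45.2 against 610 ± 10.6 CPM (-1.0), and 8 of 17 H2A members were lower, led by Hist1h2ab at 41.2 against 87.5 CPM (-1.07, adjusted p = 5.34e-05). Hist1h4d was at 192 ± 25.1 against 211 ± 19.5 CPM (-0.12, adjusted p = 0.547). Hist2h2be was higher, at 7.55 ± 1.84 against 2.57 ± 0.420 CPM (1.53, adjusted p = 0.0235). The count of higher members was 5 without the FFPE library 3 or without both libraries numbered 3, 0 without any 1 FF library, and 4 with the replicate number as a block, under which 18 members were lower. In urothelium 1 of 23 tested members passed, Hist1h1c, with 14.4, 19.5 and 23.1 CPM in FFPE against 60.2, 58.7 and 64.4 CPM in FF (-1.95, SE 0.216, adjusted p = 0.0176), where 0.551% of all genes were called lower. Without FFPE library 3 of urothelium 6 members were lower, and without any other 1 library 0.

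Whether FFPE over FF differed between the samples was tested at 2 ng. With Ovation 16 of 56 tested members had a larger ratio in BC57 than in urothelium and 0 a smaller one (median 0.81), where 4.26% of all genes were called larger. Hist1h4m differed most at 4.49 (adjusted p = 3.92e-12), then Hist2h3b at 1.86 (adjusted p = 4.4e-05) and Hist1h4b at 1.49 (adjusted p = 0.00299), the last not called without urothelium FFPE library 3 (1.11). With SMARTer 0 of 54 members were called by edgeR in either direction, as were 0.0% of all genes, while 9 members had an unadjusted p under 0.05 and DESeq2 also called 0. Without both libraries numbered 3, 4 members were called larger in BC57.

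Genes that act on histone supply were measured beside the family, in lists chosen with earlier results of these data known. Of 12 S-phase genes, 11 were higher in BC57 and 1 lower both in the frozen 2 ng Ovation libraries and in the poly(A) libraries. The shares of all genes tested, for this and the next lists, were 37.6% higher and 41.4% lower with Ovation, and 42.8% and 48.5% with poly(A). Rrm2, a subunit of ribonucleotide reductase, had 381 ± 22.3 CPM in BC57 against 5.97 ± 0.659 CPM in urothelium with Ovation (5.94) and gave 6.07 with poly(A). The replication clamp gene Pcna gave 3.21 and 2.95, and Gins2, the lower one, -1.40 with Ovation. Of 17 genes for histone pre-mRNA 3' end processing and histone mRNA decay, 11 of 16 tested were higher in BC57 with Ovation and 2 lower, and 13 of 17 and 2 with poly(A). Slbp had 98.5 ± 12.2 CPM in BC57 against 24.9 ± 1.94 CPM in urothelium with Ovation (1.92, adjusted p = 2.83e-15), and gave 1.96 with poly(A). Sympk, the scaffold symplekin, was 0.77 higher, and Tut7, a uridylyl transferase, 0.45 lower. Npat, the coactivator of histone gene transcription, was 1.25 higher with Ovation and 1.33 with poly(A), in a list of 9 with 5 higher and 2 lower for Ovation, among the lower Cramp1l (-0.72). Of 10 histone chaperones 8 were higher with Ovation, 0 lower, among them Nap1l1 (2.89) and Nasp (2.37), with Hjurp at 0.05. Slbp and Gins2 were picked after their values were seen.

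The replication-independent variants, whose genes lie outside the clusters and give poly(A) transcripts, were mostly at or below their poly(A) level in the Ovation libraries. Of 10 tested in BC57, 1 was higher and 6 lower with Ovation than with poly(A), where 30.3% of all genes tested were called higher and 29.6% lower, against 55 of 56 higher in the histone clusters. H2afz had 371 ± 12.6 against 496 ± 12 CPM (-0.24). The 1 higher was H2afx, a gene known to give both stem-loop and polyadenylated transcripts, with 335 ± 49.8 CPM with Ovation against 77.4 ± 2.87 CPM with poly(A) (2.29, SE 0.0663, adjusted p = 2.22e-20). Between the samples, H2afx was 5.46 higher in BC57 with Ovation and 3.26 with poly(A), H2afz 3.16 and H3f3b 0.96 higher with Ovation, in a list of 10 with 6 higher and 4 lower.

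The promoters of the family were read for 3 motifs. RefSeq windows (GRCm38.p6, 250 bases before to 50 after the start) were found for 55 members and searched on both strands. The octamer ATTTGCAT, bound by POU factors, was present in 11 of them, 7 of 18 H2A and 4 of 13 H2B promoters, and in 1.72% of 26970 other promoters. TATAAA was present in 32 of 55 against 14.1%, and CCAAT in 46 of 55 against 37.8%, although in only 3 of 12 H4 promoters. A match is a description and not a bound site. The windows of the H2B gene Hist1h2bb (chr13:23746484-23746783, plus strand) and the H4 gene Hist1h4d (chr13:23581318-23581617, plus strand) are shown as examples. Values of these genes are given above, and matches on either strand are in capitals.
Hist1h2bb: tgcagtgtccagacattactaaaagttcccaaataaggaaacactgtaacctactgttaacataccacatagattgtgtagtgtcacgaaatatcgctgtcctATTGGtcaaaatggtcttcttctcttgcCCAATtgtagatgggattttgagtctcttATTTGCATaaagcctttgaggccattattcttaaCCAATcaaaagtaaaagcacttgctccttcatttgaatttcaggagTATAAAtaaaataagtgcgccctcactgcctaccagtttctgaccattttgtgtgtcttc
Hist1h4d: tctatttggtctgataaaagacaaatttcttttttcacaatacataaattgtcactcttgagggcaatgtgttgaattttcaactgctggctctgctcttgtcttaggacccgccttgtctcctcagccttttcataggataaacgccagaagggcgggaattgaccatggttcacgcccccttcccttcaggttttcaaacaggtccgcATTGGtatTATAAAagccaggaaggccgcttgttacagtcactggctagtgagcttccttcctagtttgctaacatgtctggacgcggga
The Hist1h2bb window holds the octamer, TATAAA and matches to CCAAT on both strands, and the Hist1h4d window TATAAA and CCAAT on the opposite strand (ATTGG), without the octamer. Of the 59 members, 6 have every 100-base window of their transcripts unique among annotated transcripts, among them Hist1h4d, Hist2h2be and Hist2h4, and 4 have none (Hist2h2aa1, Hist2h2aa2, Hist2h3b and Hist2h3c1). How the counting treated reads that fit several genes is not given in the sources used here, so single values of members with few unique windows are less certain than those of Hist1h4d.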

How the data were processed

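Both kinds of values cover 66 libraries. As deposited, one set of tables gives raw counts of reads by gene. The submitters' processing notes name STAR, SAMtools, featureCounts and the mm10 build, without versions. No source used here gives the annotation, the strand setting of the counting or its treatment of reads that fit several genes. The deposited log2 values equal the log2 of 1 plus 1000 times the count over that library's upper quartile of counts above 0, to within 5.33e-14.

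GENCODE M21 named 37693 of the 39179 genes, and the other 1486 stayed in every test. Of the counts, genes were tested with edgeR 4.0.16 (R 4.3.3) by the quasi-likelihood test with filterByExpr, TMM and Benjamini-Hochberg adjustment over all genes tested, on the libraries of the compared groups alone. The SE is the size of the log2 fold change over the square root of F. The 25 comparisons were tested one by one, after the fits had been tested on simulated data. CPM is the count scaled to a library total of 1000000, and a fold against 0 counts uses 3 counts over the group, which covers counting error only. Alternatives were DESeq2 1.42.0, its size factors within edgeR, no filter, limma 3.58.1 on the deposited log2 values, the replicate number as a block, each library left out, and the SMARTer FFPE libraries numbered 3 left out.

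Members and lists were chosen with earlier results of these data known. Named members are the 3 most abundant per type in the frozen 2 ng low-input libraries, the 6 most abundant in poly(A) libraries, called members against the main direction, the largest fitted change of each direction per comparison (3 for interactions) and the leading members of Hist2, Hist3 and Hist4. Genes of the other lists were the 4 most abundant of each, and any others are said to be picked after their values were seen. Same-numbered libraries deviated together in 3 SMARTer comparisons, where the numbers were taken as paired from the data alone: their correlations were 0.109 to 0.176 for BC57 over urothelium in FF at 2 ng, 0.368 to 0.498 in FFPE at 2 ng, and 0.252 to 0.425 for FFPE over FF in BC57. Sequence came from the GENCODE M21 transcripts and RefSeq promoter windows.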

Additional observations from a re-analysis of the deposited data

Results flagged for a closer look

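A tested difference between 2 settings marked 3 sets of histone genes. The excess of BC57 over urothelium was larger in low-input than in poly(A) libraries for 29 of 56 tested members with Ovation and for 29 of 56 with SMARTer, by edgeR's interaction test on frozen libraries. Most of the 56 did not pass the filter on low counts in the poly(A) libraries alone, so these counts describe members that are high in low-input libraries. With SMARTer the largest fitted log2 differences were those of the H2B genes Hist1h2br (12.32, edgeR adjusted p = 0.00841), Hist1h2bp (10.91, edgeR adjusted p = 0.00104) and Hist1h2bj (6.59, adjusted p = 0.000674). With Ovation they were Hist1h2bj (6.87, adjusted p = 6.1e-05), Hist1h2br (6.46, adjusted p = 0.00979) and the H2A gene Hist1h2ae (6.40, adjusted p = 3.6e-09). Hist1h2br had no count in the SMARTer libraries of urothelium nor in the poly(A) libraries of BC57, and Hist1h2bp none in the SMARTer libraries of urothelium, so these values depend on the fit's prior count, and Hist1h2br was called with neither kit without poly(A) library 3 of urothelium (11.64 with SMARTer and 5.83 with Ovation). Hist1h2bj had 113, 128 and 105 counts in the SMARTer libraries of BC57 against 3, 7 and 3 in urothelium, and 1, 1 and 0 counts in the poly(A) libraries of BC57 against 2, 3 and 2 in urothelium.

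The ratio of FFPE to FF with Ovation at 2 ng was larger in BC57 than in urothelium for 16 of 56 tested members. The H4 gene Hist1h4m differed most (4.49, adjusted p = 3.92e-12), followed by the H3 gene Hist2h3b (1.86, adjusted p = 4.4e-05) and the H4 gene Hist1h4b (1.49, adjusted p = 0.00299). Hist1h4m had 11 ± 0.962 CPM in FFPE against 7.31 ± 1.86 CPM in FF for BC57, and 2.24 ± 0.965 against 32.4 ± 2.94 CPM for urothelium. Its identical copy in coding sequence, Hist1h4n, had 114 ± 20 against 477 ± 26.6 CPM for BC57 and 2.27 against 24.9 CPM for urothelium. Why the 2 samples differ was not tested.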

How the results depend on the processing

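Of the counts of called members, 227 stayed within 1.5 times under an alternative and 17 did not, and the cause was not tested. Higher in BC57 with poly(A) were 17 members without the low-count filter and 12 with DESeq2, against 5. Higher in BC57 FFPE over FF were, with Ovation, 15 with limma against 7, and, with SMARTer, 0 without the filter, 0 with limma and 5 without both libraries numbered 3, against 1. Lower there with SMARTer were 2 with limma against 15. Lower in urothelium FFPE with SMARTer were 3 with DESeq2 and 6 without both libraries numbered 3, against 1. Lower in frozen BC57 at 250 pg were 1 with SMARTer by limma, against 0, and 0 with Ovation by limma, against 1. The excess of BC57 with SMARTer over that with poly(A) was smaller for 1 member with DESeq2, and the FFPE ratio with SMARTer was larger in BC57 for 1 without the filter and 4 without both libraries numbered 3, against 0 each. Limma was not run for SMARTer over Ovation, since the tables were normalized separately.

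With the replicate block, SMARTer FFPE over FF in BC57 gave 4 higher and 18 lower members, and frozen and FFPE BC57 over urothelium at 2 ng 51 and 46 higher, in the 3 comparisons taken as paired. In the other 18, correlations ran from -0.121 to 0.163, so the numbers only name libraries, and the block moved the lower members to 2 in SMARTer urothelium FFPE and to 0 in frozen Ovation BC57 at 250 pg.

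Leaving out each library, 324 counts stayed within 1.5 times and 24 did not. Those that did not ranged from 25 to 49 (BC57 higher, SMARTer FFPE, 2 ng), 4 to 31 (250 pg), 0 to 1 (BC57 lower, frozen Ovation, 250 pg), 0 to 5 (BC57 FFPE higher, SMARTer), 0 to 6 (urothelium FFPE lower, SMARTer) and 0 to 3 (FFPE ratio larger in BC57, SMARTer).

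Scaling by TMM moved 10 of 22 summed levels past 1 SD. They became 70.0 CPM (BC57) and 121 (urothelium) with poly(A), 7752 and 808 in frozen Ovation at 50 pg, 4325 and 458 in frozen SMARTer at 250 pg, 4996 and 576 at 2 ng, and, in BC57 SMARTer FFPE, 3112 at 250 pg and 3144 at 2 ng.

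For single genes 698 values kept call and direction, 11 lost the call, 2 gained it and 6 turned, and with a library left out 933 kept, 30 lost, 3 gained and 7 turned. Directions turned only where the gene had not passed. With limma, Hist2h3c1 (BC57 over urothelium, frozen Ovation) gave -0.13, Hjurp there -0.20, and Hist1h4d (SMARTer FFPE over FF, BC57) 0.073. Hist3h2a (SMARTer over poly(A), urothelium) gave -0.0066 without the filter, and Hist1h1c (SMARTer over Ovation, BC57) -0.0026 with DESeq2's size factors and -0.0043 with DESeq2. With a library left out, Hist2h3c1 ran from -0.19 to 0.48 with Ovation and from -0.33 to 0.11 with SMARTer, Hist2h2be from -0.49 to 0.0086 (BC57 over urothelium, Ovation FFPE) and from -0.038 to 0.28 (Ovation over poly(A), urothelium), Hist1h1c from -0.063 to 0.083 and Hjurp from -0.016 to 0.14. With 2 libraries left in a group, and 2 to 16 members without a count in a group, single sparse members are the least certain.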
